A study of Mus musculus with 34 samples.

Results

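The 9 genes described here encode the high-affinity IgE receptor, the growth factor receptor Kit and regulators and enzymes typical of mast cells, and they are 9 of the 19938 genes measured on the arrays. They are the receptor chains Fcer1a, Ms4a2 and Fcer1g, the receptor Kit, the transcription factors Gata2, Gata1 and Mitf, and the enzymes Hdc and Cyp11a1. Each was read from probesets annotated to its symbol alone, taking the brightest on average where a gene had several. Membership rested on measured values: the genes were picked with the nilotinib course of line 8093, where their signal was very high, already known. Their values in that course are therefore given as a description with no test.

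The high-affinity IgE receptor is built from an alpha chain that binds IgE, a beta chain that amplifies the signal and a pair of gamma chains that carry the signalling motif, and its crosslinking by antigen makes mast cells and basophils release histamine. KIT is the receptor for stem cell factor, on which mast cells depend for survival and growth, and it is also present on early blood progenitors. GATA2, GATA1 and MITF are transcription factors needed to form mast cells, whereas committed B-lineage cells normally carry little of this set.

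The cultures were pre-B acute lymphoblastic leukaemia cells of mouse lines 8093 and Bin-2, each grown out of the leukaemia of a BCR/ABL transgenic mouse, 8093 on inbred C57BL/6J and Bin-2 on a mixed background, so that each line stands for 1 leukaemia. All groups shared the transgene, a layer of irradiated mouse embryonic fibroblasts and medium with recombinant interleukin-3, and the cells taken for RNA were those floating or loosely attached. Nilotinib, an inhibitor of the ABL kinase that also acts on KIT, was used at 20 nM on 8093 cells and 50 nM on Bin-2 cells, and lonafarnib, a farnesyltransferase inhibitor, at 1 µM on 8093 cells and 0.25 µM on Bin-2 cells. Arrays were made before drug (the start, day 0), when few cells were alive (the midpoint, day 3, or day 4 for 8093 with lonafarnib) and when the cultures grew again in drug (the end, day 20 for 8093 with nilotinib, day 26 for 8093 with lonafarnib, day 21 for Bin-2 with nilotinib and day 30 for Bin-2 with lonafarnib). Viability was 5 to 10% at the midpoints, or 20% for 8093 with lonafarnib, and about 90% at the ends. Which promoter drives the transgene is not given in the sources used here.

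The 12 combinations of line, drug and time held 34 arrays, 3 in each of 10 groups and 2 in each of the 8093 ends, and replicates were separate plates of 1 line, so p-values measure the spread between plates. Values are log2 probeset signals, on which a difference of 1 is a doubling, and arrays give no count of reads from which a depth could be stated. Signals of 1190 olfactory and vomeronasal receptor genes, which these cells should hardly express, served as a guide to dim signal: their 95th percentile lay between 4.43 and 5.07 in the 12 groups. For a change that starts below this dim reference the size is not exact. The interquartile range of signals over all genes was narrower at the 8093 nilotinib midpoint (2.91) and the Bin-2 lonafarnib midpoint (3.11) than in the other groups (3.43 to 3.65). Of 16 genes of pre-B cells 15 or 16 lay above the dim reference in every group except the 8093 nilotinib end, where 13 did.

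All 9 genes had an entry in the RefSeq table of build GRCm38.p6, which also gave the 250 bases before each of their 14 transcription starts. Some of these starts lie inside the gene spans printed next. For Hdc and Gata1 the only start given does (windows chr2:126618679-126618928 and chrX:7967911-7968160). The bases before the outer edge of those 2 spans were not searched. Fcer1a lies at chr1:173221269-173227232, Ms4a2 at chr19:11615517-11623790, Fcer1g at chr1:171229572-171234349, Kit at chr5:75574987-75656722, Gata2 at chr6:88193891-88207032, Gata1 at chrX:7959260-7976663, Mitf at chr6:97807002-98021360, Hdc at chr2:126593659-126624025 and Cyp11a1 at chr9:57998024-58027031. The stretches before the starts were searched for the GATA factors' letters AGATAA as well as AGATAG, likewise TGATAA as well as TGATAG, and for the E-box letters that MITF-type factors can bind, which are CACGTG or else CATGTG or else CACATG, on both strands and with no overlap between the kinds. A GATA match was present for 5 of the 9 genes (Fcer1a, Ms4a2, Mitf, Hdc and Cyp11a1). It was found at 6 of the 14 starts, against 26.5% of the 32851 starts in the table. An E-box match was present for 2 genes (Fcer1a and Cyp11a1), at 2 of the 14 starts, against 17.6% of all starts. The sequences of the receptor chains and the enzymes follow, with the second of 2 starts for Cyp11a1, to show where these hold the letters. Each ends at the base before the start, is written 5′ to 3′ on the gene's strand, and has GATA matches in capitals.
Fcer1a, chr1:173227230-173227479, minus strand: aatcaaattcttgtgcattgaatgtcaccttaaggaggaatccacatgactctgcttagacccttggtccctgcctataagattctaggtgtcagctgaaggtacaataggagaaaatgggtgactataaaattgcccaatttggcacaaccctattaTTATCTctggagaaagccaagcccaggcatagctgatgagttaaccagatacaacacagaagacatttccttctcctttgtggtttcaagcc
Ms4a2, chr19:11623720-11623969, minus strand: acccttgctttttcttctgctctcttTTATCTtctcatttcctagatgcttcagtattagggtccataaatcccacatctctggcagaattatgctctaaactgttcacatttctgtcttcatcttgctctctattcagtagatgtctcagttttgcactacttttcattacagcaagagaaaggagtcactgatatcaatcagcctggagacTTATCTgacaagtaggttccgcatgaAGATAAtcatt
Fcer1g, chr1:171234350-171234599, minus strand: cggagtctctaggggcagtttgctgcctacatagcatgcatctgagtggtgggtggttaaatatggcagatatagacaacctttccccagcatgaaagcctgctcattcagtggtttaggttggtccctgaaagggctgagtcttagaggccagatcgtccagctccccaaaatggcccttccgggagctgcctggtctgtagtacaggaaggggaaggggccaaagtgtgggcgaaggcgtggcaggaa
Hdc, chr2:126618679-126618928, minus strand: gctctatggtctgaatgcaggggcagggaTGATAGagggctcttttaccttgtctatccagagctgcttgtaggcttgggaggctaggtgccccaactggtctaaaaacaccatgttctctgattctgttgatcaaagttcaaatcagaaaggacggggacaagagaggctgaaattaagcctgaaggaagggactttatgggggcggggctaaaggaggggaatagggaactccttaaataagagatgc
Cyp11a1, second start, chr9:58014702-58014951, plus strand: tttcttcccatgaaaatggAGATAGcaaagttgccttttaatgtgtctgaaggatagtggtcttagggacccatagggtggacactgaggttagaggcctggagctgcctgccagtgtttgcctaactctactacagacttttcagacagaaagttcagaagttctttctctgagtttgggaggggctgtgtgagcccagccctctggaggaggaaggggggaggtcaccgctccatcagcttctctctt
Ms4a2 held 3 GATA matches, 224 to 219, 37 to 32 and 11 to 6 bases before its start, Fcer1a 1 match 92 to 87 bases before its start, Hdc 1 match 221 to 216 bases before, and Cyp11a1 1 match 231 to 226 bases before its second start. Fcer1g held none in this window. The first start of Cyp11a1, which is not printed, held no GATA match either and held the E-box match of that gene. A match is a description of letters and shows neither binding nor a cause.

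Before drug, Kit and the gamma chain gene Fcer1g were higher in Bin-2 than in 8093. Over 6 start arrays a line, the level of Kit was 7.62 ± 0.14 (SD) in Bin-2 and 5.74 ± 0.12 in 8093, and Fcer1g stood at 9.82 in Bin-2 and 8.97 in 8093. These 6 arrays of 8093 include the start of its nilotinib course, on which the genes were picked, so the differences of 1.88 and 0.84 are a description, beside which 9.47% of all genes were called higher in Bin-2. The test set the 6 Bin-2 arrays against the 3 of the 8093 lonafarnib start, a comparison added after the data were seen. A gene is called here at a Benjamini-Hochberg adjusted p below 0.05 over all 19938 genes. Kit was higher in Bin-2 by 1.93 ± 0.15 (SE of the fit; limma adjusted p = 5.87e-11) and Fcer1g by 0.72 ± 0.15 (adjusted p = 0.000559). Thus 2 of 9 members were called, against 8.9% of all genes called higher in Bin-2. Fcer1a, Ms4a2 and Cyp11a1 lay below the dim reference at all 4 starts. The starts of the 2 drugs within a line, which are both untreated, gave 0 called members in either line, with 0% of all genes called in both. At an unadjusted p under 0.05 limma counted 0 members in both, and 2350 (8093) and 1085 (Bin-2) of all genes.

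**Figure D1:**
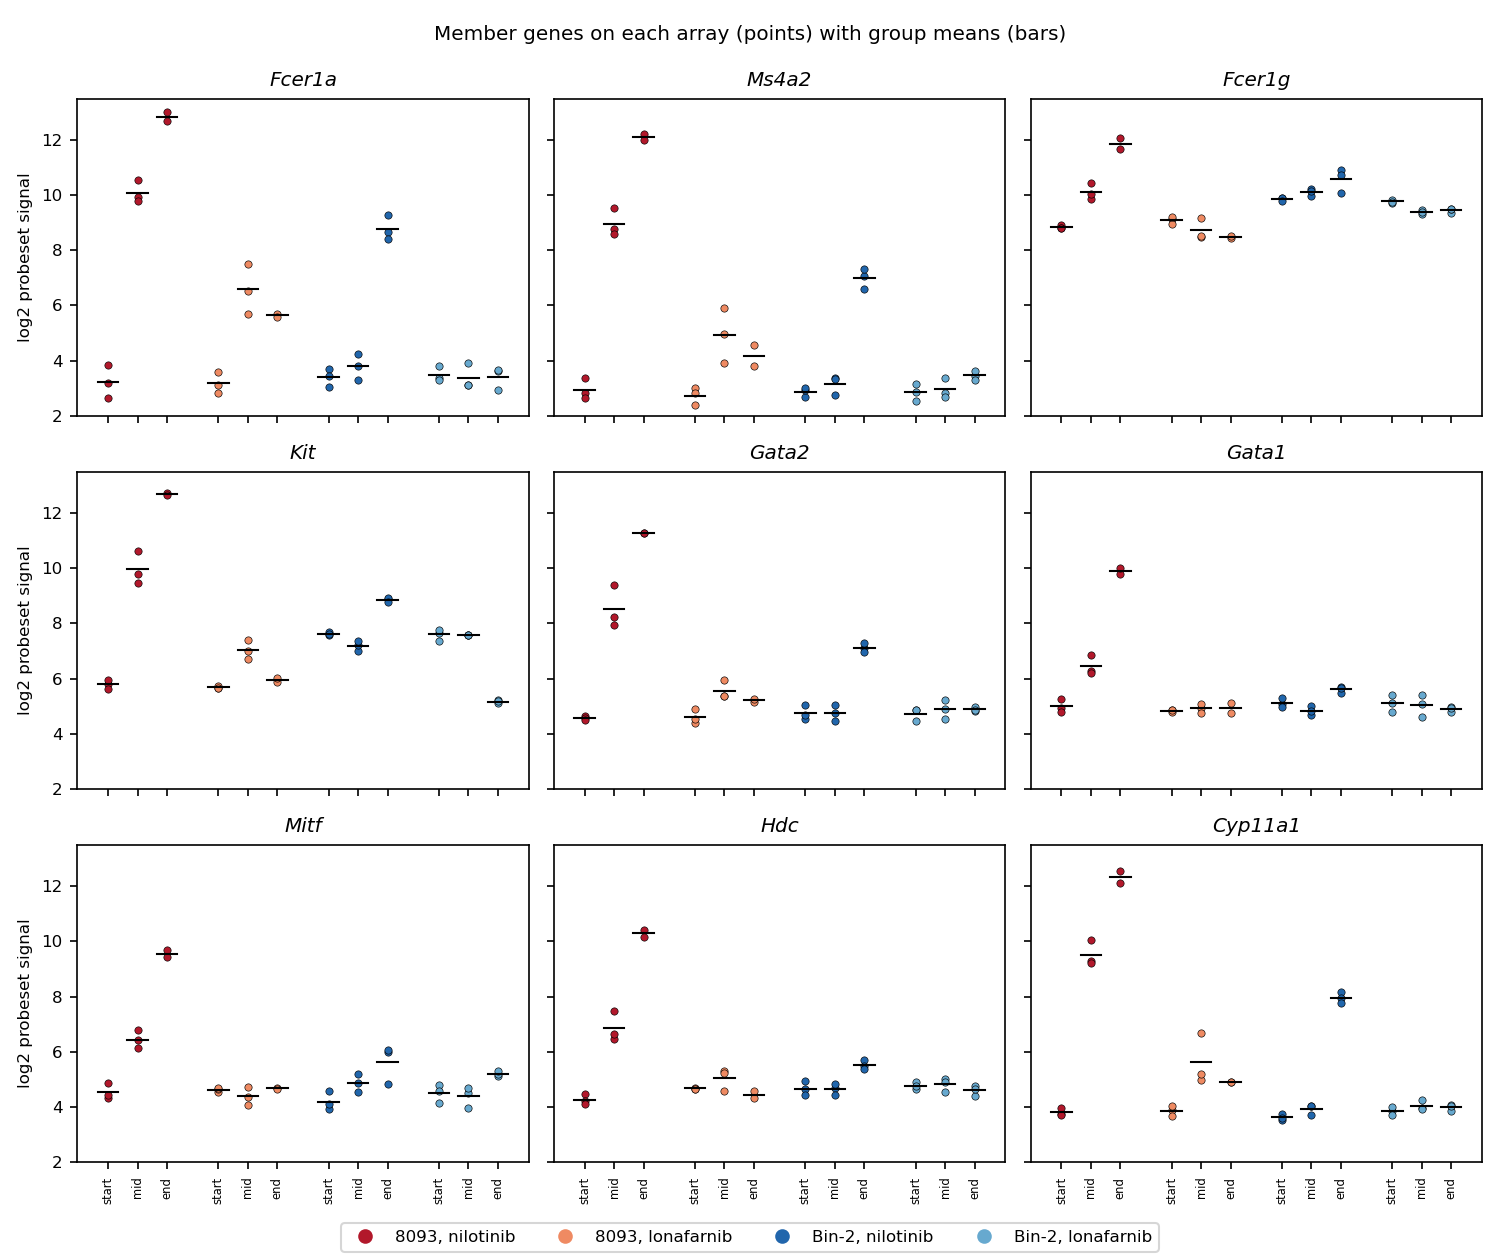
Log2 probeset signal of the 9 genes on every array (points) and the group means (bars), with 1 panel a gene and the start, midpoint and end of the 4 courses along the axis. In each panel the 8093 nilotinib end arrays are the highest. In Bin-2 with lonafarnib the end arrays of Kit (5.10 to 5.22) lie below its start arrays (7.37 to 7.77). Those of Fcer1g lie below its start by less (9.37 to 9.51 against 9.72 to 9.84).

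The alpha chain gene Fcer1a had the widest range of the set, 9.67 between its lowest and highest group mean. On the 8093 nilotinib arrays Fcer1a read 2.64, 3.21 and 3.85 at the start, 9.92, 10.55 and 9.78 at the midpoint, and 12.67 and 13.02 at the end, so the 3 times did not overlap. The difference from the start was 6.85 ± 0.35 at the midpoint and 9.61 ± 0.39 at the end. Its Bin-2 nilotinib arrays read 3.69, 3.44 and 3.05, then 3.30, 3.82 and 4.25, then 8.66, 9.28 and 8.41: the midpoint overlapped the start, and the end lay far above both. The Bin-2 end exceeded the start by 5.39 ± 0.35 (limma adjusted p = 5.75e-12), whereas the midpoint difference was 0.40 (adjusted p = 0.659).
Under lonafarnib the 8093 arrays read 2.83, 3.10 and 3.60 at the start, 7.52, 5.70 and 6.53 at the midpoint, and 5.69 and 5.59 at the end. Fcer1a thus rose in 8093 by 3.41 ± 0.35 at the midpoint (limma adjusted p = 8.76e-08) and was still 2.46 ± 0.39 above the start at the end (adjusted p = 8.22e-05). All 9 Bin-2 lonafarnib arrays lay between 2.92 and 3.90, below the dim reference, and no difference between their times was called. Each of the rises of Fcer1a began below the dim reference.

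Ms4a2, the beta chain gene, was high and low in the same groups as Fcer1a. Its 8093 nilotinib arrays read 2.84, 2.63 and 3.36 at the start, 8.76, 9.53 and 8.59 at the midpoint, and 12.23 and 12.01 at the end, differences from the start of 6.02 ± 0.33 and 9.17 ± 0.36. On Bin-2 nilotinib arrays it read 2.69, 2.92 and 3.00, then 2.75, 3.36 and 3.32, then 7.07, 7.32 and 6.61, and only the end stood apart. That end was 4.13 ± 0.33 above the start (limma adjusted p = 2.8e-10). In 8093 with lonafarnib it read 2.37, 3.01 and 2.81, then 5.91, 3.90 and 4.96, then 4.56 and 3.80, with a rise of 2.19 ± 0.33 at the midpoint (adjusted p = 3.43e-05) and of 1.45 ± 0.36 at the end (adjusted p = 0.0102). The end call is lost without the first start array (1.27, adjusted p = 0.0549) or the first end array (1.07, adjusted p = 0.188). The midpoint arrays spread over 2 log2 units, yet none reached down to the start, and 31.7% of all genes had no overlap between these times. Its Bin-2 lonafarnib arrays stayed between 2.53 and 3.62. As with Fcer1a, the start lay below the dim reference, so these sizes are not exact.

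Fcer1g, whose gamma chain also serves other Fc receptors of macrophages and natural killer cells, differed from the other chains: it was well above the dim reference in all 12 groups and its group means spanned 3.39. In 8093 with nilotinib it read 8.93, 8.82 and 8.79, then 9.86, 10.45 and 10.03, then 12.07 and 11.66, differences of 1.26 ± 0.17 and 3.01 ± 0.19 from the start. On the Bin-2 nilotinib arrays it read 9.89, 9.90 and 9.80, then 10.22, 9.96 and 10.13, then 10.91, 10.73 and 10.08. The end rose by 0.71 ± 0.17 (limma adjusted p = 0.0056), and the midpoint difference was 0.24 and not called. Without the first end array, the rise lost its call (0.54, adjusted p = 0.0847).
With lonafarnib the gamma chain gene went the other way from Fcer1a and Ms4a2 in 8093. Its signal was 9.12, 8.95 and 9.22 at the start, 9.17, 8.47 and 8.53 at the midpoint and 8.44 and 8.50 at the end, and it fell by 0.62 at the end (SE 0.19; limma adjusted p = 0.0373). This call is lost with quantile normalization (adjusted p = 0.0541), with every probeset tested (adjusted p = 0.0622) and in a fit of the compared courses alone (adjusted p = 0.0597). It is also lost without the first start array (adjusted p = 0.0909), without the third (adjusted p = 0.133) or without either end array (adjusted p = 0.174 and 0.172), with values from -0.56 to -0.66. The midpoint difference of -0.37 was not called, except without the first midpoint array (adjusted p = 0.0265). In Bin-2 with lonafarnib it was 9.84, 9.72 and 9.76, then 9.47, 9.32 and 9.39, then 9.37, 9.51 and 9.48, differences from the start of -0.38 and -0.32 that were not called.

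Kit went different ways in the 4 courses: it was higher throughout nilotinib in 8093, rose at the nilotinib end in Bin-2, rose and fell back under lonafarnib in 8093, and fell under lonafarnib in Bin-2. Its 8093 nilotinib arrays read 5.80, 5.93 and 5.63 at the start, 9.81, 10.61 and 9.48 at the midpoint, and 12.71 and 12.67 at the end, differences from the start of 4.18 ± 0.18 and 6.90 ± 0.20. On the Bin-2 nilotinib arrays it read 7.58, 7.69 and 7.62, then 7.01, 7.22 and 7.37, then 8.90, 8.92 and 8.76. All midpoint arrays lay below the start arrays, a difference of -0.43 ± 0.18 that was not called (limma adjusted p = 0.225), and all end arrays lay above them by 1.23 ± 0.18 (adjusted p = 1.05e-05). No overlap between midpoint and start was seen for 27.3% of all genes, and none between end and start for 27.3%.
In 8093 with lonafarnib Kit read 5.67, 5.75 and 5.65, then 7.39, 6.69 and 7.00, then 5.88 and 6.03. It rose by 1.34 ± 0.18 at the midpoint (limma adjusted p = 6.55e-06), fell by 1.07 from midpoint to end (SE 0.20; adjusted p = 0.000671), and its end differed from the start by 0.26 ± 0.20 (adjusted p = 0.509). In Bin-2 with lonafarnib it read 7.66, 7.77 and 7.37, then 7.58, 7.58 and 7.59, then 5.22, 5.10 and 5.17. The loss thus came after the midpoint: the end was lower than the start by a log2 difference of -2.44 ± 0.18 (limma adjusted p = 3.79e-11) and lower than the midpoint by -2.42 ± 0.18, while start and midpoint differed by -0.02. These were the lowest Kit levels in the study, below all arrays of the 8093 starts. Kit lay above the dim reference in all 12 groups, so its sizes are free of that limit.

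Among the transcription factors, Gata2 rose in Bin-2 with nilotinib and at the 8093 lonafarnib midpoint, and Mitf in Bin-2 alone outside the 8093 nilotinib course. Gata2 read 4.64, 4.59 and 4.49 at the 8093 nilotinib start, 7.93, 9.38 and 8.24 at the midpoint, and 11.28 and 11.27 at the end, differences of 3.95 ± 0.24 and 6.70 ± 0.27. In Bin-2 with nilotinib it read 5.05, 4.55 and 4.67, then 4.75, 5.04 and 4.46, then 7.13, 7.30 and 6.95, so the end alone stood apart, 2.37 ± 0.24 above the start (limma adjusted p = 3.61e-08). In 8093 with lonafarnib it read 4.37, 4.89 and 4.53, then 5.94, 5.36 and 5.36, then 5.15 and 5.28. The midpoint rise of 0.95 ± 0.24 was called (adjusted p = 0.00847), but was not called without the first start array (0.84, adjusted p = 0.0621) or without the first midpoint array (0.76, adjusted p = 0.0681). The 8093 end difference of 0.62 ± 0.27 missed the threshold (adjusted p = 0.175). Its end arrays did not overlap the start, which held for 41.2% of all genes. Its Bin-2 lonafarnib arrays lay between 4.47 and 5.24 and overlapped at all 3 times.

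Gata1, which acts later than Gata2 and also drives red cell and platelet precursors, changed by a large amount in the 8093 nilotinib course and by little elsewhere. It read 4.95, 5.26 and 4.78, then 6.29, 6.85 and 6.19, then 9.80 and 10.01 there, differences of 1.45 ± 0.18 and 4.91 ± 0.20 from the start, so the larger share of the difference arose between midpoint and end. On Bin-2 nilotinib arrays it read 5.07, 4.98 and 5.29, then 4.99, 4.68 and 4.81, then 5.48, 5.71 and 5.67. The end lay above every start array, and 27.3% of all genes had no overlap between these groups. The difference of 0.51 ± 0.18 from the start missed the threshold (limma adjusted p = 0.078), while the rise of 0.79 from midpoint to end passed it (adjusted p = 0.0159). The latter call is lost without the second midpoint array (0.72, adjusted p = 0.13), the third midpoint array (0.78, adjusted p = 0.0679) or the second end array (0.75, adjusted p = 0.105). A fit of the compared courses alone called the end against the start as well (adjusted p = 0.0269). Under lonafarnib, the 8093 arrays lay between 4.74 and 5.10 and the Bin-2 arrays between 4.60 and 5.42, and no time differed by a called amount.

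Mitf read 4.86, 4.31 and 4.42, then 6.42, 6.79 and 6.12, then 9.68 and 9.43 in 8093 with nilotinib, differences of 1.91 ± 0.25 and 5.03 ± 0.28. In Bin-2 with nilotinib it read 3.93, 4.56 and 4.09, then 5.19, 4.88 and 4.53, then 5.97, 6.07 and 4.85, and the end rose by 1.44 ± 0.25 (limma adjusted p = 0.000181), from a start below the dim reference. The third end array, at 4.85, lay within the range of the midpoint, and the midpoint itself differed from the start by 0.67 ± 0.25 (adjusted p = 0.166). With lonafarnib its 8093 arrays stayed between 4.06 and 4.73, whereas in Bin-2 it read 4.80, 4.13 and 4.56, then 4.50, 3.95 and 4.68, then 5.12, 5.19 and 5.29. That end was 0.82 ± 0.25 above the midpoint (adjusted p = 0.0146, and 0.117 without the second midpoint array) and 0.70 ± 0.25 above the start (adjusted p = 0.0927). These values are from the brighter of 2 probesets. The second, dimmer probeset averaged 2.1 to 2.3 in the other 11 groups and 5.78 ± 1.33 (SD, n = 2) at the 8093 nilotinib end, and with it the Bin-2 nilotinib end difference was 0.05 (adjusted p = 0.95).

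Hdc, the enzyme that makes histamine from histidine, read 4.47, 4.20 and 4.12 at the 8093 nilotinib start, 6.46, 7.49 and 6.63 at the midpoint, and 10.42 and 10.16 at the end, differences of 2.60 ± 0.20 and 6.03 ± 0.23. Hdc started there at a mean of 4.26, below the dim reference of 4.49, so these sizes are not exact. In Bin-2 with nilotinib it read 4.64, 4.42 and 4.93, then 4.69, 4.84 and 4.41, then 5.71, 5.50 and 5.38. The end was the only time that stood apart, with a rise of 0.87 ± 0.20 over the start (limma adjusted p = 0.004) and of 0.88 over the midpoint (adjusted p = 0.017). The second of these is not called without the third midpoint array (0.76, adjusted p = 0.123), the first end array (0.79, adjusted p = 0.157) or the second end array (0.90, adjusted p = 0.0697). In 8093 with lonafarnib Hdc read 4.70, 4.66 and 4.65, then 5.29, 5.24 and 4.58, then 4.57 and 4.32, and the midpoint difference of 0.37 was not called (adjusted p = 0.305). Its Bin-2 lonafarnib arrays lay between 4.38 and 5.00.

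Cyp11a1, the mitochondrial enzyme that makes pregnenolone from cholesterol, was called in the same comparisons of times as Fcer1a and Ms4a2. In 8093 with nilotinib it read 3.75, 3.71 and 3.96, then 9.28, 10.04 and 9.21, then 12.10 and 12.54, differences of 5.71 ± 0.25 and 8.52 ± 0.28. On Bin-2 nilotinib arrays it read 3.54, 3.75 and 3.58, then 3.70, 4.05 and 4.02, then 8.16, 7.94 and 7.77, an end rise of 4.34 ± 0.25 (limma adjusted p = 7.77e-13) with no overlap, as for 27.3% of all genes. With lonafarnib its 8093 arrays read 3.87, 3.66 and 4.02, then 6.67, 4.98 and 5.20, then 4.90 and 4.89. It rose there by 1.76 ± 0.25 at the midpoint (adjusted p = 2.16e-05) and by 1.04 ± 0.28 at the end (adjusted p = 0.0179). The end call is lost without the second start array (0.95, adjusted p = 0.067), the first end array (1.04, adjusted p = 0.101) or the second end array (1.05, adjusted p = 0.13). All Bin-2 lonafarnib arrays read 3.71 to 4.25. The starts lay below the dim reference, so the sizes are not exact.

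**Figure D2:**
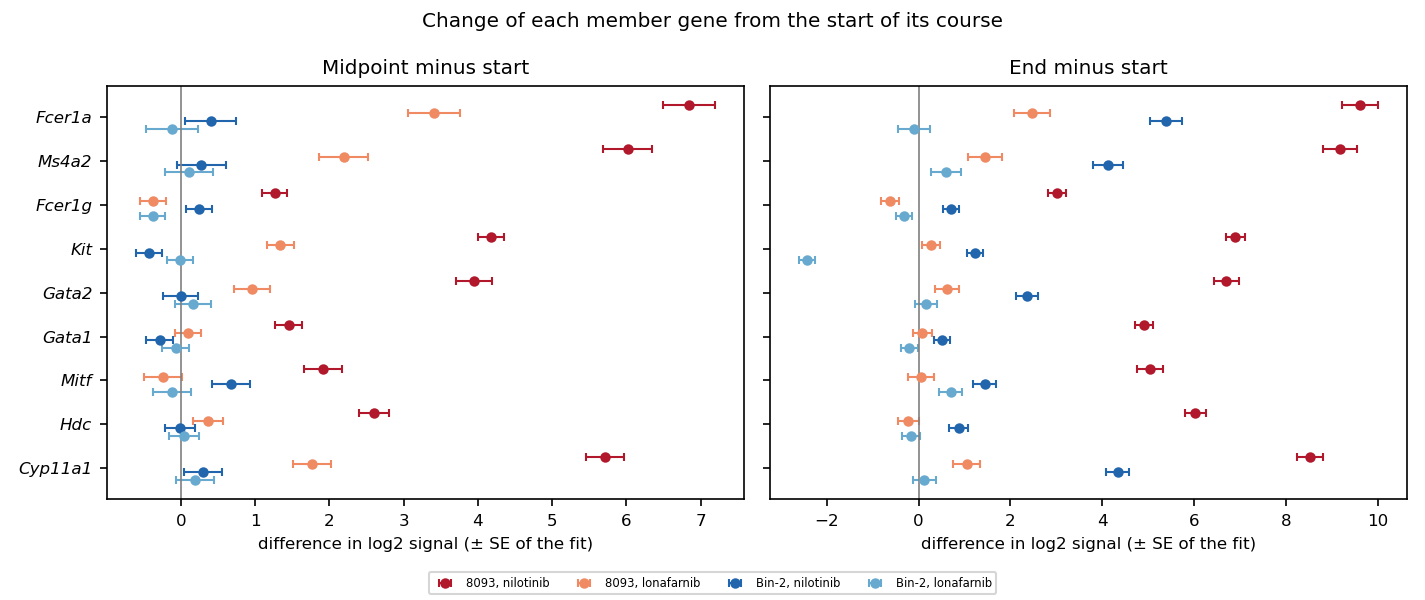
Difference of each gene's mean log2 signal from the start of its own course, at the midpoint (left) and the end (right), with the SE of the limma fit as bars, for the 4 courses. Bin-2 with nilotinib lies near 0 at the midpoint and above 0 at the end, and Kit in Bin-2 with lonafarnib is the point at -2.44.

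Set side by side, the courses differed in when the genes changed. In 8093 with nilotinib all 9 genes were higher at the midpoint, with a median difference of 3.95 against 0.03 over all genes, and again higher at the end, with a median of 6.70 against -0.15. Because the genes were chosen with this course known, nothing is read from these counts. Of all genes 22.6% were called upward at that midpoint, 19.6% at the end, and 26.7% between midpoint and end. As a description, the difference between midpoint and end ran from 1.75 ± 0.19 for Fcer1g to 3.46 ± 0.20 for Gata1. Thus Gata1, Mitf, Hdc and Fcer1g gained more after the midpoint than before it (3.46, 3.11, 3.43 and 1.75 against 1.45, 1.91, 2.60 and 1.26). Fcer1a, Ms4a2, Cyp11a1, Kit and Gata2 gained more before it. The starts of Fcer1a, Ms4a2, Cyp11a1 and Hdc lay below the dim reference (4.49), and those of Gata2 (4.57) and Mitf (4.53) just above it. For these genes the gain before the midpoint is not exact. With the dimmer Mitf probeset that gain was -0.08.

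In Bin-2 with nilotinib the genes changed late. At the midpoint 0 of 9 were called, against 3.47% of all genes, while limma gave 2 (Kit and Mitf) an unadjusted p under 0.05. At the end 8 of 9 had risen above the start, against 4.95% of all genes called upward, with Gata1 the exception. Their median difference was 1.44, against -0.03 over all genes. From midpoint to end 7 of 9 rose, against 0.998% of all genes, with Fcer1g (0.47, adjusted p = 0.246) and Mitf (0.76, adjusted p = 0.178) not called in limma. Both were called without the third end array (Fcer1g 0.72, adjusted p = 0.011, and Mitf 1.16, adjusted p = 0.00364), and the count was 5 to 9 when 1 array was left out.

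In 8093 with lonafarnib 5 of 9 genes rose at the midpoint, against 3.89% of all genes called upward: Fcer1a, Ms4a2, Kit, Gata2 and Cyp11a1. Of 14 macrophage genes 7 rose at the same midpoint (median change 1.46), their summed signal on the log2 scale being 8.91 to 8.98 on the start arrays and 10.55 to 11.72 on the midpoint arrays. At the Bin-2 lonafarnib midpoint, where none of the 9 genes was called, 7 of the 14 rose as well (median 1.16), with summed signals of 9.55 to 10.00 and 11.11 to 11.50. The part of this signal in the result was not tested. At the end 3 of 9 were above the start (Fcer1a, Ms4a2 and Cyp11a1; 4.4% of all genes) and Fcer1g was below it (4.31% of all genes). The called number at the end fell from 4 to between 1 and 3 when 1 array was left out, and to 1 in a fit of the compared courses alone, where Fcer1a kept its call and Ms4a2 (adjusted p = 0.0649), Cyp11a1 (adjusted p = 0.109) and Fcer1g did not. Between midpoint and end 1 of 9, Kit, fell, against 2.31% of all genes called downward, and Fcer1a (-0.95 ± 0.39, adjusted p = 0.171), Cyp11a1 (-0.72, adjusted p = 0.148) and Hdc (-0.59, adjusted p = 0.129) had negative differences that limma did not call. Without the second midpoint array Fcer1a (-1.39, adjusted p = 0.0343), Ms4a2 (-1.26, adjusted p = 0.0239) and Cyp11a1 (-1.04, adjusted p = 0.0295) were called too, and without the third Hdc (-0.82, adjusted p = 0.0329).

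In Bin-2 with lonafarnib few of the 9 genes were called. At the midpoint 0 of 9 genes were called, against 16.5% of all genes; limma gave 1 (Fcer1g) an unadjusted p under 0.05. A fit of the compared courses alone called Fcer1g (-0.38, adjusted p = 0.0379). At the end 1 of 9, Kit, was called, downward, against 3.41% of all genes. From midpoint to end Kit fell (9.97% of all genes) and Mitf rose (19.8% of all genes).

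Whether the drugs differed was tested as the nilotinib change minus the lonafarnib change within a line. Doses differ between the drugs as listed above, and days differ at the ends and at the 8093 midpoints. Viability differs between the drugs at the 8093 midpoints only. In Bin-2 at the end 7 of 9 genes had a higher change with nilotinib than with lonafarnib, against 4.65% of all genes: the difference was 5.48 ± 0.49 for Fcer1a (limma adjusted p = 4.74e-09), 4.21 ± 0.36 for Cyp11a1 (adjusted p = 1.75e-09), 3.67 ± 0.25 for Kit (adjusted p = 1.71e-11) and 3.52 ± 0.46 for Ms4a2 (adjusted p = 4.47e-06). Gata2 (2.22 ± 0.34, adjusted p = 4.56e-05), Hdc (1.04 ± 0.29, adjusted p = 0.0173) and Fcer1g (1.03 ± 0.24, adjusted p = 0.005) also passed, and Gata1 (0.71, adjusted p = 0.0799) and Mitf (0.73, adjusted p = 0.226) did not. The call for Hdc is lost with quantile normalization (0.85, adjusted p = 0.062) and without the second nilotinib start array (adjusted p = 0.0603), the first nilotinib end array (adjusted p = 0.0575) or the second lonafarnib end array (adjusted p = 0.0546). Gata1 is called without the first lonafarnib start array (0.87, adjusted p = 0.0353) and Mitf without the third nilotinib end array (1.13, adjusted p = 0.0177). The large difference for Kit joins a rise with nilotinib to a fall with lonafarnib. At the Bin-2 midpoint 0 of 9 were called, against 1.48% of all genes, and limma gave 2 (Fcer1g and Mitf) an unadjusted p under 0.05. In 8093 the same differences, given without a test, ran from 1.35 (Gata1) to 3.94 (Cyp11a1) at the midpoint, where 9.19% of all genes were called upward, and from 3.64 (Fcer1g) to 7.72 (Ms4a2) at the end, where 15.7% were.

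The lines were compared in the same way, as the Bin-2 change minus the 8093 change, with doses and days that differ. At the lonafarnib midpoint viability differed as well, at 5 to 10% in Bin-2 and 20% in 8093. So did the interquartile range of signals there (3.11 in Bin-2 and 3.43 in 8093). With lonafarnib the change at the midpoint was lower in Bin-2 than in 8093 for 4 of 9 genes, against 3.36% of all genes called downward: Fcer1a by -3.52 ± 0.49 (limma adjusted p = 3.77e-05), Ms4a2 by -2.08 ± 0.46 (adjusted p = 0.0064), Cyp11a1 by -1.57 ± 0.36 (adjusted p = 0.00846) and Kit by -1.36 ± 0.25 (adjusted p = 0.00121). At the lonafarnib end it was lower for 2 of 9, against 2.49% of all genes. For Kit the difference was -2.70 ± 0.27 (limma adjusted p = 4.39e-08), with a fall in Bin-2 (-2.44) and a change of 0.26 in 8093 that was not called. For Fcer1a it was -2.55 ± 0.52 (adjusted p = 0.00251), with a rise in 8093 (2.46) and a change of -0.09 in Bin-2 that was not called. With nilotinib the Bin-2 change was the lower for all 9 genes, as a description: by -1.02 (Fcer1g) to -6.45 (Fcer1a) at the midpoint and by -2.30 (Fcer1g) to -5.67 (Kit) at the end, where 8.01% and 15% of all genes were called downward.

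**Figure D3:**
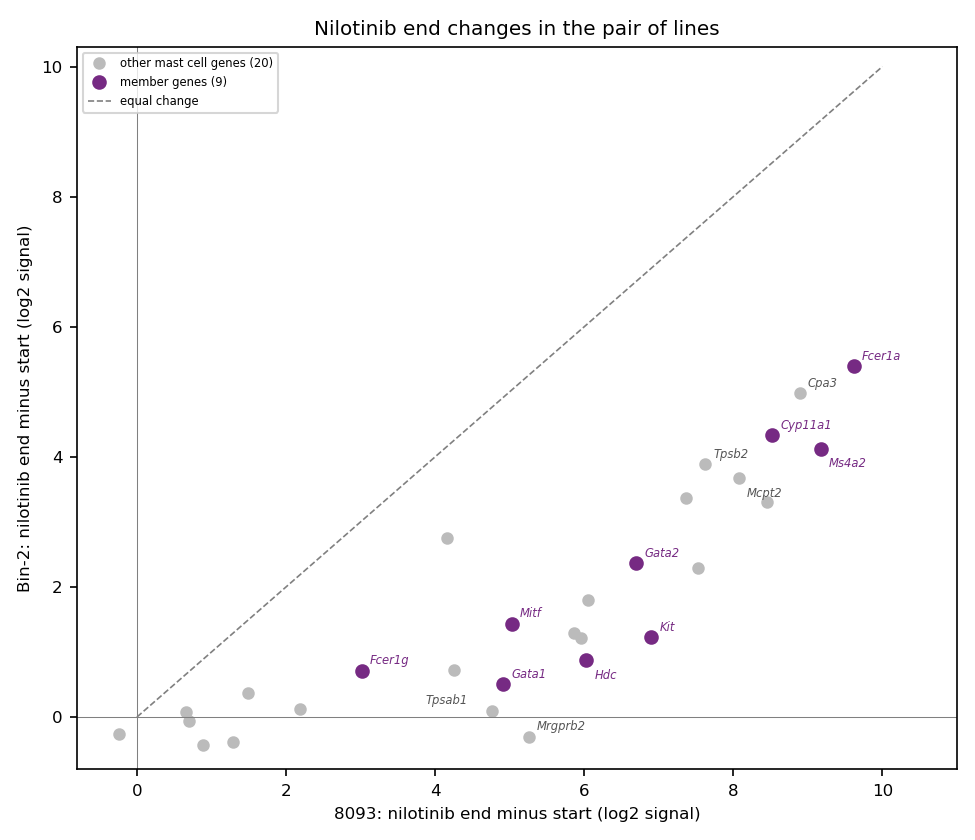
Change from start to nilotinib end in 8093 (horizontal) and Bin-2 (vertical) for the 9 genes (purple) and 20 other mast cell genes (grey), in log2 signal, with a dashed line of equal change. All 9 genes lie below the line; Fcer1a (5.39), Cyp11a1 (4.34) and Ms4a2 (4.13) lie highest among the 9, Cpa3 of the other genes lies at 4.98 for Bin-2, and Tpsab1 and Mrgprb2 lie near 0 for Bin-2.

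Ordered by level, the 8093 nilotinib end came first for all 9 genes and its arrays overlapped no other group. The genes were picked with this course known, so its place in the order is a description. Of all genes, 61.6% had no overlap between this end and its start, and 66.3% had none between this end and its midpoint. Those shares are in either direction and cover only these pairs of groups. How many of all genes were highest at this end and apart from every other group was not computed, so nothing is read from the count. The 8093 nilotinib midpoint came next, followed by the Bin-2 nilotinib end, for 8 genes; for Fcer1g this order was turned (10.11 and 10.58), and the ranges of these groups overlapped. Of the 11 pairs of neighbouring groups in each order, 6 did not overlap for Kit, 5 for Fcer1a, Fcer1g and Cyp11a1, 4 for Ms4a2 and Gata2, 3 for Gata1 and Hdc and 2 for Mitf. The remaining neighbours did not differ beyond the spread of their arrays. No share of all genes was computed for these neighbour counts, so they are a description. Group means above the dim reference numbered 12 of 12 for Fcer1g, Kit and Gata1, 11 for Gata2, 9 for Hdc, 8 for Mitf, 5 for Fcer1a and Cyp11a1 and 4 for Ms4a2.

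In 3 of the 12 groups 8 or 9 of the 9 genes were highest, or lowest, on the same array. In the other 9 groups no array was highest or lowest for more than 6 of the 9. At the 8093 nilotinib midpoint the second array was the highest for 9 of 9 genes, with a mean over the set of 9.08 against 8.30 and 8.25. The same array had the higher mean over 14 macrophage genes (8.89 against 8.07 and 7.98) and over 14 fibroblast genes (6.25 against 5.87 and 5.97), and the lower mean over 16 pre-B genes (8.23 against 8.75 and 8.66). At the 8093 lonafarnib midpoint the first array was the highest for 8 of 9 genes (6.40 against 5.50 and 5.70), again with the highest macrophage mean (6.71 against 5.87 and 6.00). At the Bin-2 nilotinib end the third array was the lowest for 8 of 9, with a mean of 7.17, and its macrophage mean of 7.65 compared with 8.94 and 9.04. At the 8093 lonafarnib end the macrophage means were 4.87 and 5.89 on the 2 arrays while the means over the set were 5.40 and 5.35. The part of these cell type signals in the changes of the 9 genes was not tested.

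The lists below were chosen with earlier results of these data known, so their counts in the 8093 nilotinib course are a description. They were counted with the same rule, and the shares of all genes called higher and lower stand beside them. These shares were 22.6% and 27.5% at the 8093 nilotinib midpoint, 19.6% and 24.9% at its end, 1.87% and 1.6% at the Bin-2 nilotinib midpoint, 4.95% and 3.94% at its end, 3.89% and 6.9% at the 8093 lonafarnib midpoint, 4.4% and 4.31% at its end, 4.45% and 12% at the Bin-2 lonafarnib midpoint, and 4.66% and 3.41% at its end.

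Of 20 measured genes of mast cell granules and surface, 17 rose at the 8093 nilotinib midpoint and 19 at its end (median change 5.01), none falling. In Bin-2 with nilotinib 1 rose at the midpoint and 11 at the end, none falling, with a median of 0.98. The carboxypeptidase Cpa3 rose there by 4.98 ± 0.26, the tryptase Tpsb2 by 3.89 ± 0.24, and the chymases Mcpt2 by 3.67 ± 0.53 and Cma1 by 3.37. Tpsab1 (0.10) and Mrgprb2 (-0.30) were not called in Bin-2, whereas in 8093 they rose by 4.76 and 5.25. With lonafarnib 8 of the 20 rose at the 8093 midpoint and 4 at its end, when Cpa3 stood 4.37 above the start, while in Bin-2 the end had 0 up and 1 down, Cpa3 by -1.07. In bulk cultures a change in the share of a cell type and a change in RNA per cell cannot be told apart.

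Genes that act downstream of the IgE receptor were taken from a list of 22, of which 21 were measured (Lyn was not). At the 8093 nilotinib end 15 of 21 rose and 4 fell, a share of falls no higher than that of all genes, and the median change was 1.36 against -0.15 over all genes. Alox5, which begins leukotriene synthesis, rose by 7.85 ± 0.28, the adaptors Lat2 by 5.72 ± 0.24, Lcp2 by 5.61 ± 0.22 and Lat by 4.03, and the kinase Fyn fell by 2.07. At the Bin-2 nilotinib end 7 rose and 1 fell, with a median of 0.29: Alox5 by 3.42 ± 0.25, Lat2 by 1.15 ± 0.22, Alox5ap, the partner of the Alox5 enzyme, by 0.78 and Plcg1 by 0.77, and Fyn by -0.40. At the Bin-2 midpoint Lat2 rose (0.96) and Lat (-0.64) and Prkcb (-0.65) fell. At the 8093 lonafarnib midpoint 5 rose, with Alox5 at 1.75 ± 0.25, Lat2 at 1.54 and Lcp2 at 1.14, and none fell. Lat2 and Lcp2 were higher in Bin-2 than in 8093 before drug, by 2.05 and 1.99.

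Of 14 genes of Kit and interleukin-3 receptor signalling, 10 rose and 1 fell at the 8093 nilotinib end. The receptor chains Csf2rb2 and Csf2rb, which pass on the interleukin-3 signal, rose by 5.78 ± 0.23 and 3.52 ± 0.18, the feedback inhibitor Cish by 2.21 and the kinase Jak2 by 1.60. At the Bin-2 nilotinib end 2 rose and none fell, and they were these chains, Csf2rb2 by 2.59 ± 0.20 and Csf2rb by 1.32 ± 0.16. At the Bin-2 nilotinib midpoint limma called 0 of the 14, with 4 at an unadjusted p under 0.05. In 8093 with lonafarnib Cish (1.03) and Csf2rb2 (0.70) rose at the midpoint. At the Bin-2 lonafarnib end, where Kit itself was lowest, 3 rose (Cish by 1.00, Csf2rb2 by 0.64 and Jak2 by 0.55) and none fell.

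Partners and targets of the GATA factors numbered 14 measured genes, of which 11 rose at the 8093 nilotinib end and none fell. The integrin Itga2b rose by 6.65 ± 0.25, the embryonic globin Hbb-y by 6.16 ± 0.24, the receptor Tek by 5.74 ± 0.19 and the platelet factor Pf4 by 4.21 ± 0.63. In Bin-2 at the nilotinib end 4 rose and 1 fell: Pf4 rose by 4.22 ± 0.56 and Itga2b by 2.39 ± 0.23, Gfi1b fell by 0.92, and Hbb-y (0.31) and Tek (-0.06) were not called. Pf4 alone had already risen at the Bin-2 midpoint (3.88), where Gfi1b fell (-0.82) and Gata1 and Gata2 were not called.

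Of 16 other transcription factors of myeloid and mast cells 12 rose and 2 fell at the 8093 nilotinib end. Meis1 rose by 5.88 ± 0.19, Ikzf2 by 5.36 ± 0.18, Bhlhe40 by 3.47 and Id2 by 3.08, and Erg (-1.17) and Myb (-0.91) fell. At the Bin-2 nilotinib end 8 rose and none fell, among them Tfec, a relative of Mitf, by 1.74 ± 0.33, Cebpb by 1.44 ± 0.29, Id2 by 1.29 and Meis1 by 0.90 ± 0.17. At the Bin-2 midpoint Id2 alone rose (0.79). At the 8093 lonafarnib midpoint Bhlhe40 alone rose (0.88).

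The list around Hdc holds Hdc itself, a gene of the set, whereas the list around Cyp11a1 leaves Cyp11a1 out. Their counts are therefore not set against each other. Of 7 measured histamine genes 3 rose at both nilotinib ends: the vesicle transporter Slc18a2, which the mast cell list also holds, by 8.46 ± 0.30 in 8093 and 3.31 ± 0.27 in Bin-2, the receptor Hrh4 by 5.72 ± 0.18 and 0.95 ± 0.16, and Hdc as above, while Hnmt, which breaks histamine down, was not called in 8093 (0.14). Of 11 measured genes of steroid hormone synthesis 1 rose at the 8093 nilotinib end, the transporter Tspo by 0.87, and 1 fell, Stard3 by 0.61. At the Bin-2 nilotinib end limma called 0 of the 11, with 1 at an unadjusted p under 0.05. Cyp11a1 is not counted among these 11.

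**Figure D4:**
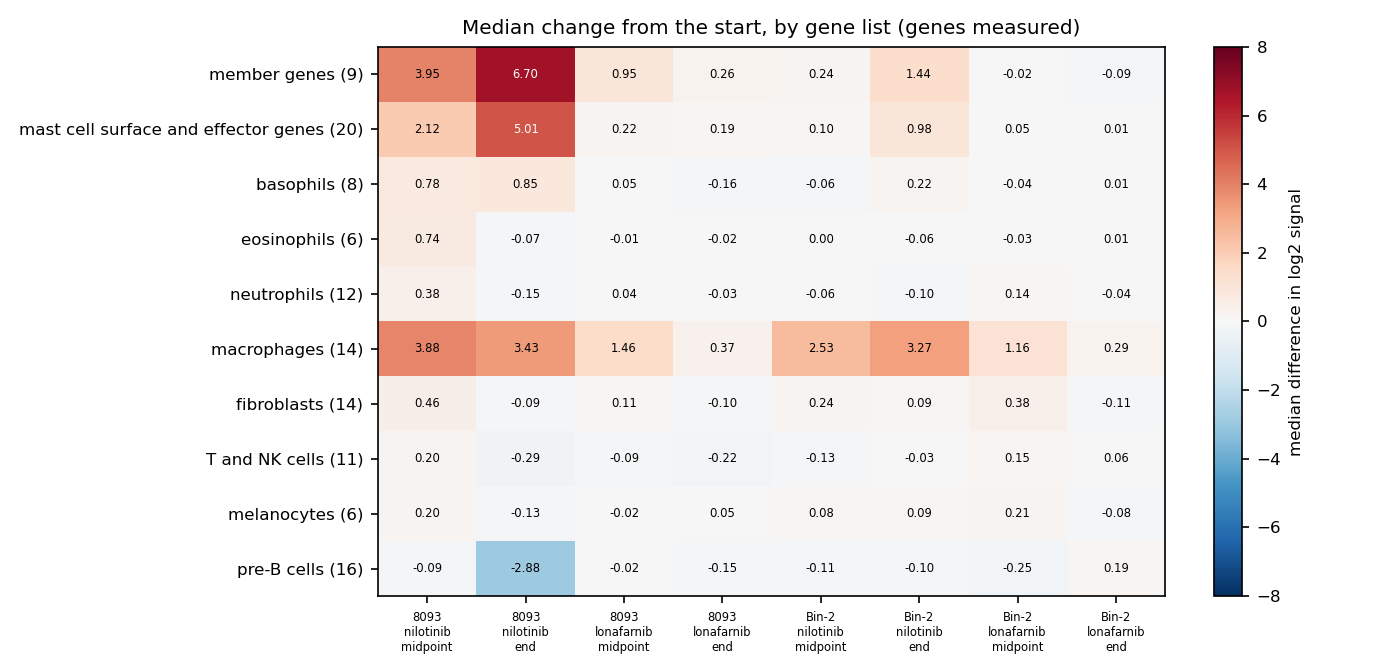
Median change from the start in log2 signal for the 9 genes and for lists of cell type genes (rows, with the number of genes measured) in the 8 drug groups (columns); red is higher and blue lower than the start. Macrophage genes are raised in both nilotinib courses, at midpoints (3.88 and 2.53) and ends (3.43 and 3.27), and less so at the lonafarnib midpoints (1.46 and 1.16), and the pre-B median is -2.88 at the 8093 nilotinib end and between -0.25 and 0.19 elsewhere.

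Genes of other cell types moved in some of the same arrays. Of 14 macrophage genes 12 rose at the 8093 nilotinib midpoint and 13 at its end, and in Bin-2 with nilotinib 12 at the midpoint and 14 at the end, none falling in these groups. At the lonafarnib midpoints 7 of 14 rose in either line. Their summed signal, on the log2 scale, was 9.71 to 10.02 at the Bin-2 nilotinib start, 12.12 to 13.27 at the midpoint and 12.56 to 13.86 at the end. At the Bin-2 nilotinib midpoint the macrophage list means were 8.37, 7.07 and 7.84 on the 3 arrays. The means of the 9 genes on these arrays were 5.18, 5.32 and 5.26, and none of the 9 was called. At the 8093 nilotinib end the macrophage means were 9.17 and 7.66 on the 2 arrays, and those of the 9 genes 11.44 and 11.42. The part of macrophage signal in the changes of the 9 genes was not tested. The lysozyme gene Lyz2 rose by 4.50 ± 0.53 in Bin-2 and 7.80 ± 0.60 in 8093 at the nilotinib ends.

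Basophils share the IgE receptor with mast cells, and of 8 genes of that list 5 rose and 1 fell at the 8093 nilotinib midpoint and 6 rose and none fell at its end. At the Bin-2 end Cd200r3 (1.67 ± 0.29) and Csf1 (1.14 ± 0.18) rose and Mcpt8, a protease that defines mouse basophils, fell by 1.62. Mcpt8 was not called at the 8093 nilotinib end (0.44 ± 0.21), where its mean was 4.69. Its highest group mean, 5.99, was that of the Bin-2 nilotinib start. Of 12 neutrophil genes 5 rose and none fell at the 8093 nilotinib midpoint, and 2 rose and 2 fell at its end. In each group 2 to 4 of the 12 lay above the dim reference, while the granule enzyme genes Elane and Mpo lay below it in all 12 groups. Of 6 melanocyte genes, a type that also uses Kit and Mitf, 2 lay above the dim reference in every group, none rose at the 8093 nilotinib end and 1 fell, and limma called 0 at the Bin-2 nilotinib end, with 0 at an unadjusted p under 0.05. Of 6 eosinophil genes 4 rose at the 8093 nilotinib midpoint, 1 rose and 1 fell at its end and 2 fell in Bin-2, and of 11 genes of T and NK cells 1 rose and 5 fell in 8093 and 1 rose and 1 fell in Bin-2. Fibroblast genes, which the feeder layer could supply, rose in 10 of 14 at the 8093 nilotinib midpoint and in 2 at its end with 1 falling, and in Bin-2 with nilotinib in 4 and 1. Pre-B genes fell in 15 of 16 at the 8093 nilotinib end and 1 rose, the list mean going from 8.60 to 5.81, while at the Bin-2 nilotinib end 2 rose and 3 fell and the mean was 9.15 against 9.22.

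Genes whose profile over the 12 group means came closest to each of the 9 were chosen by a rule over the genes outside the set. Predicted genes and small RNAs were left out of this search. Closeness was measured as the root mean square difference between centred group means. For Ms4a2 they were Slc18a2 (0.44), Alox5 (0.46) and Tpsb2 (0.52), and for Cyp11a1 Slc18a2 (0.34), Alox5 (0.35) and Tpsb2 (0.35); Ms4a2 and Cyp11a1 were closest to each other within the set (0.25). For Fcer1a they were Tpsb2 (0.72), F13a1 (0.75) and Slc18a2 (0.78), and for Gata2 Neb (0.15), Plxdc2 (0.26) and Papss2 (0.28). For Gata1 they were Meis2 (0.15), Ryr3 (0.17) and Pde1c (0.18), for Hdc Meis1 (0.17), Slc45a3 (0.20) and Ikzf2 (0.20), and for Mitf Ecm1 (0.23), Havcr2 (0.26) and Gna14 (0.26). For Kit they were Plxdc2 (0.74), A4galt (0.74) and Akr1c12 (0.76), and for Fcer1g Sec24d (0.23), Fgd4 (0.26) and Cd84 (0.27). The 8093 nilotinib groups, on which the 9 genes were chosen, enter these values, so the likeness is a description.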

How the data were processed

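RNA extracted with Trizol was turned into biotinylated cRNA and hybridized to Affymetrix Mouse Gene 1.0 ST arrays, per the labels' protocols. The authors deposited 1 table of log2 probeset signals for 34 arrays; that the scale is log2 was read from its values (1.02 to 14.37). Partek is listed in the submitters' processing notes; no version, role, background correction or normalization is stated there.

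Of 35557 probesets 21789 carried 1 gene symbol in the platform annotation, 1621 several and 12147 none listed. Each of 19938 genes was read from its highest-mean probeset. limma 3.58.1 in R 4.3.3 (lmFit, eBayes) fitted the 12 group means to all arrays, with 22 residual and 6.70 prior degrees of freedom and 23 comparisons. P-values are two-sided and adjusted (Benjamini-Hochberg) over all genes within a comparison, with calls below 0.05, and ± after a change is the SE of this fit. The fit was tested on simulated data.

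The 9 genes and the 15 gene lists were chosen with earlier results of these data known. Comparisons that contain the 8093 nilotinib midpoint or end therefore carry no p for the 9 genes. Counts of the lists in the 8093 nilotinib course are likewise a description. Named besides the 9 genes were, per list and comparison, up to 4 called genes of largest change and 1 called the other way, members of lists of 10 or fewer genes, and the 3 genes of most similar profile. A few others were named after their values were seen: Tpsab1, Mrgprb2, Lat, Lyz2, Elane and Mpo. Same-numbered arrays of different groups did not deviate together (2 of 32 pairs had a correlation over 0.1, range -0.18 to 0.16), so no pairing was used. Alternatives were quantile normalization, median centring, a trended robust prior, the compared courses alone, every probeset, the lowest-mean probeset, a filter on dim genes, replicate blocks and each array left out. The start comparison without the 8093 nilotinib start was added after seeing the data. Promoter sequences and gene positions come from RefSeq tables of GRCm38.p6.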

Additional observations from a re-analysis of the deposited data

Results flagged for a closer look

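For 13 changes a test of the difference itself found that drugs or lines differed. In Bin-2 at the end the nilotinib change exceeded the lonafarnib change for 7 of 9 genes, against 4.65% of all genes. The difference was 5.48 for Fcer1a, 4.21 for Cyp11a1, 3.67 for Kit, 3.52 for Ms4a2, 2.22 for Gata2, 1.04 for Hdc and 1.03 for Fcer1g (limma adjusted p from 1.71e-11 for Kit to 0.0173 for Hdc). The call for Hdc is lost with quantile normalization (limma adjusted p = 0.062) and when some single arrays are left out. At the Bin-2 midpoint 0 of 9 passed, against 1.48% of all genes. Both courses have 3 arrays at each time, and days differ (21 and 30).

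With lonafarnib the change in Bin-2 minus that in 8093 was -3.52 for Fcer1a, -2.08 for Ms4a2, -1.57 for Cyp11a1 and -1.36 for Kit at the midpoint, and -2.55 for Fcer1a and -2.70 for Kit at the end (limma adjusted p from 4.39e-08 for Kit at the end to 0.00846 for Cyp11a1). These were 4 of 9 genes at the midpoint and 2 of 9 at the end, against 3.36% and 2.49% of all genes called downward. The doses were 0.25 and 1 µM, and viability at the midpoints was 5 to 10% in Bin-2 and 20% in 8093. Differences that contain the 8093 nilotinib midpoint or end were not tested.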

How the results depend on the processing

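Of 207 changes of the 9 genes, 3528 values were recomputed under alternatives: 3484 kept their side of the threshold, of which 3389 kept direction and 95 uncalled ones changed sign, while 30 lost a call, 11 gained one and 3 reversed. The 3 reversals were Mitf read from its dimmer probeset, with -0.0787 for the 8093 nilotinib midpoint minus start, -0.114 for the nilotinib minus lonafarnib change at the 8093 midpoint and -0.0132 for the Bin-2 lonafarnib end minus midpoint; the cause was not tested. With that probeset the last comparison had 1 called gene in place of 2. With only the compared courses in the fit, which leaves fewer arrays to estimate the spread, 1 gene in place of 4 was called at the 8093 lonafarnib end and 1 in place of 0 at the Bin-2 lonafarnib midpoint. Leaving out 1 array gave 1 to 3 calls at the 8093 lonafarnib end (4 with all arrays), 1 to 4 from its midpoint to its end (1 with all arrays), 1 to 2 for the Bin-2 lonafarnib end minus midpoint (2), 4 to 5 for the 8093 lonafarnib midpoint (5), 7 to 8 for the Bin-2 nilotinib end (8), 5 to 9 for its end minus midpoint (7), and 6 to 8 for the drug difference at the Bin-2 end (7). Counts of the other 16 comparisons did not move when an array was left out. Where an 8093 end kept 1 array, that array was assumed to vary like the other groups. With the replicate number, or the plate letter, as a replicate block, the count at the Bin-2 nilotinib end was 8 and no call among the 207 changes moved. No alternative was run for genes of the lists. The number of arrays, 2 or 3 a group, limits precision, and genes below the dim reference have changes of inexact size.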

Other observations

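Single genes of the granulocyte lists had values as follows. Mmp8, a neutrophil collagenase, rose by 3.52 ± 0.41 at the 8093 nilotinib end and by 3.54 ± 0.37 at the Bin-2 nilotinib end, while Ctsg fell by 1.79 in Bin-2. Prg2, the major basic protein gene of eosinophils, was 2.92 above the start at the 8093 nilotinib midpoint and differed from it by -0.02 at the end. The basophil and mast cell gene Cd200r3 rose by 7.16 ± 0.33 and the cytokine Il6 by 4.98 ± 0.28 at the 8093 nilotinib end, whereas in Bin-2 Cd200r3 rose by 1.67 ± 0.29 and Il6 was not called (0.25 ± 0.25).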
